A study of Mus musculus with 18 samples.

Results

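Genes of the collagens, of other proteins of the extracellular matrix and of their remodelling were followed in skeletal muscle of HSA-LR mice, a model of myotonic dystrophy, with and without treatment by the antisense conjugate Pip6a-PMO. The genes came from a fixed list of 48 symbols. Of these, 46 were among the 46725 genes in the files and all 46 passed the filter on low counts in both muscles, whereas Col3a1 and Pdgfra were not analysed here. Ctgf is the older symbol of Ccn2. RNA was sequenced from gastrocnemius and quadriceps of 3 WT mice, 3 HSA-LR mice and 3 HSA-LR mice given Pip6a-PMO, each mouse giving both muscles, in 18 polyA-selected stranded libraries. All mice were of the FVB strain and aged 20 weeks. HSA-LR mice carry a human skeletal actin transgene with an expanded CTG repeat in its 3' untranslated region, whose promoter is active in skeletal muscle fibres, so the repeat RNA is not made by the fibroblasts, vessels or immune cells of the same muscle. Pip6a-PMO is a morpholino oligomer against the repeat joined to a cell-penetrating peptide and injected into the vein. WT and HSA-LR mice are labelled untreated, and the protocol names saline as the control injection.

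The matrix of skeletal muscle has an interstitial part, built of fibrillar collagens I, III and V with collagens XII and XIV and small leucine-rich proteoglycans on their surface, and a basement membrane around each fibre, built of laminins, collagen IV, nidogens and perlecan. Collagen VI forms microfilaments between them, and laminin alpha 2 links the basement membrane to dystroglycan and integrins on the fibre. Most of these proteins are made by fibroblasts and fibro-adipogenic progenitors, and lysyl oxidases, matrix metalloproteinases and their inhibitors (TIMPs) crosslink and turn them over.

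A gene's count was the sum of the counts of its exon bins, and its level is given in CPM, its counts scaled to a fixed library total after TMM scaling of the library sizes. Library totals ran from 98916844 to 143135976 counts, and the 46 matrix genes together took 0.27% to 0.495% of a library. Timp1 had the lowest count of them in any library, 42. Compared per kilobase of exon, the highest levels in WT quadriceps were those of Sparc (79.7 CPM per kb), Lamb2 (51.4), Col4a1 (33.9) and Dcn (30.6), and the lowest were those of Col8a1 (0.221), Col12a1 (0.571) and Timp1 (0.722). Coverage of long genes leaned toward the 3' end in every library, with a median log2 ratio of 5' to 3' counts of -1.84 to -1.66 in 17 libraries and -2.19 in the gastrocnemius of Pip6a-PMO mouse 3. By the labels WT mouse 2 was female and mouse 3 male. Y-linked genes summed to 152.8 and 188.9 CPM in the muscles of mouse 2 and 1.13 and 1.45 CPM in those of mouse 3, against these labels. In every other library they summed to 132.9 to 188.9 CPM. By these genes the WT group was of mixed sex, whereas all HSA-LR and Pip6a-PMO mice expressed them. Counts in HSA-LR against WT and in treated against HSA-LR mice are therefore also given without WT mouse 2 and without WT mouse 3.

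Within each muscle the groups were compared in edgeR (quasi-likelihood test, Benjamini-Hochberg method over all genes tested), with an adjusted p under 0.1 as the threshold for a call. Log2 FC values come from the fit and are followed by their standard error. Of the 46 matrix genes, 9 differed between HSA-LR and WT gastrocnemius, 7 rising and 2 falling in HSA-LR mice, against 15.5% of all genes tested (1343 higher and 1084 lower). In the quadriceps, 20 changed, 17 higher and 3 lower, against 20.3% of all genes (1719 higher and 1450 lower). The median log2 FC of the matrix genes was 0.18 in the gastrocnemius and 0.43 in the quadriceps, and that of all genes was -0.01 and 0.01. Col6a1, Col6a2, Lama2, Lum and Thbs4 rose and Eln fell in both muscles, which is 66.7% of the genes called in the gastrocnemius and 30% of those called in the quadriceps. The list was drawn up with results of these libraries known, so these counts describe it and do not test it. Since whole muscle was sequenced, fewer cells of a type and less RNA per cell cannot be told apart in any of these values.

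Leaving out single WT or HSA-LR libraries lowered most of these counts. The share of all genes called in the same fits is not given here. A loss of calls over all genes therefore cannot be told apart from one in these genes. In the gastrocnemius, the count of 9 became 4, 3 and 5 without WT mouse 1, 2 and 3 and 2, 2 and 3 without HSA-LR mouse 1, 2 and 3. In the quadriceps, the count of 20 became 11 without HSA-LR mouse 1 and 13 without HSA-LR mouse 2, and it was 15 without WT mouse 2, 17 without WT mouse 3, 20 without WT mouse 1 or HSA-LR mouse 3 and 23 without Pip6a-PMO mouse 3. Col6a3 and Lama2 in the gastrocnemius and Bgn, Col14a1, Col1a2, Col6a1, Col6a2, Lama2, Lum, Mmp2, Timp1 and Timp3 in the quadriceps were called under each of the 18 alternative settings.

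**Figure D1:**
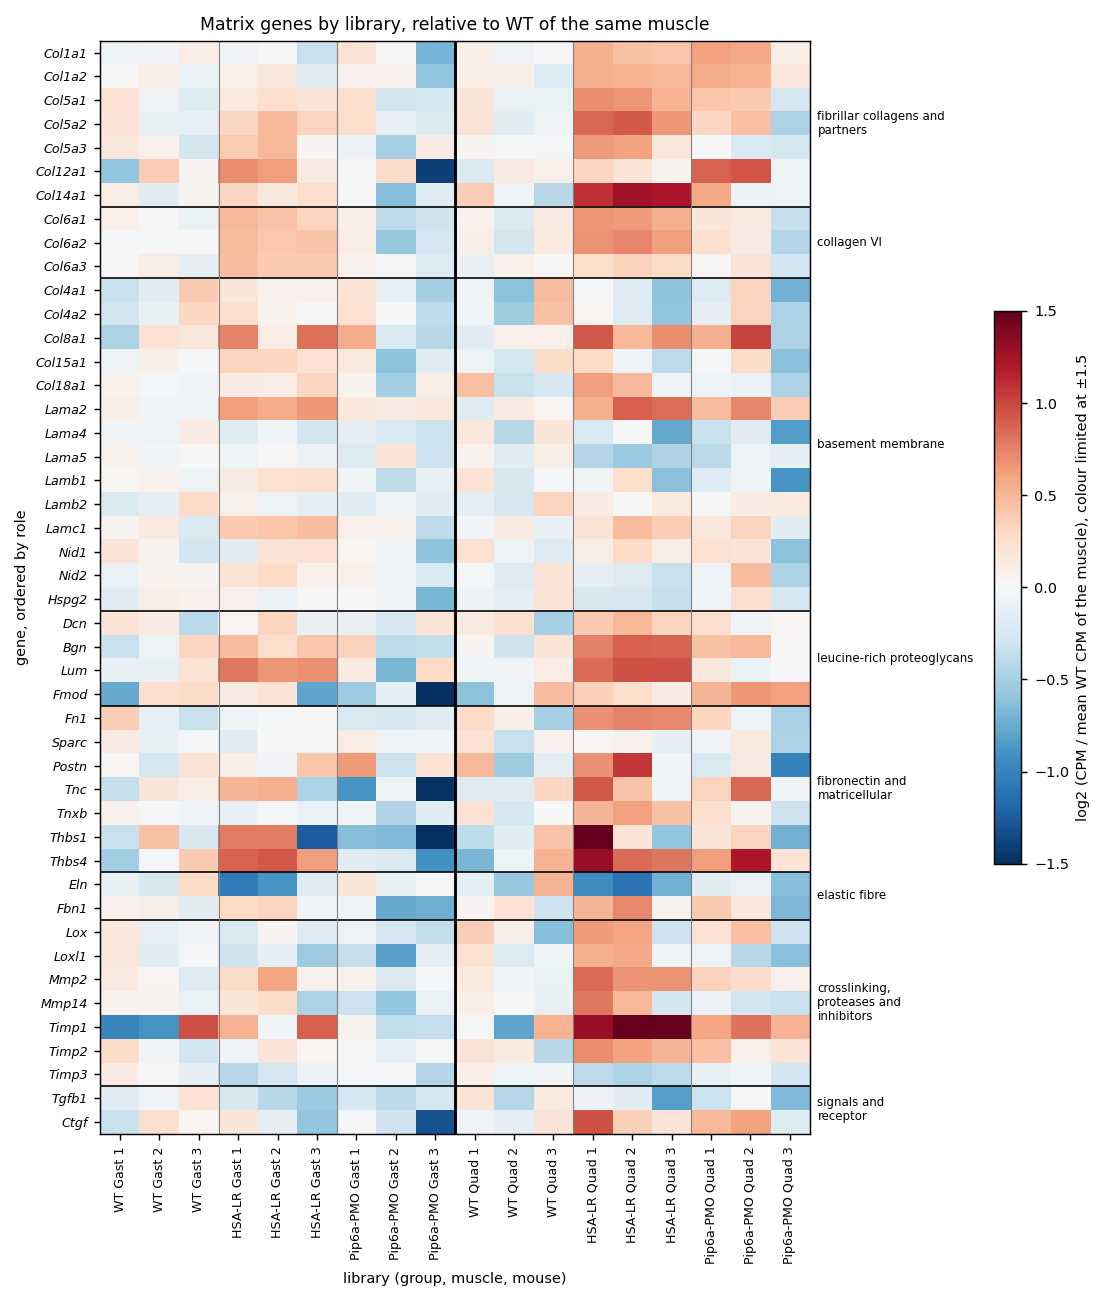
Level of each of the 46 matrix genes in each of the 18 libraries, as log2 of its CPM over the mean CPM of the 3 WT libraries of the same muscle, with genes in rows by role and libraries in columns. The HSA-LR columns of the quadriceps are red for the fibrillar collagens, collagen VI, Bgn, Lum and Fn1. In the Pip6a-PMO columns of the quadriceps collagen VI, Lum and Fn1 are paler, whereas Col1a1, Col1a2 and Col12a1 are as red or redder in mice 1 and 2.

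Pip6a-PMO mice were compared with HSA-LR mice to see how these genes stood after treatment. In the gastrocnemius, 10 of 46 matrix genes changed, all of them lower in the treated mice, against 10% of all genes (702 higher and 864 lower). In the quadriceps, 13 changed, 12 lower and Timp3 higher, against 13.8% of all genes (1019 higher and 1124 lower). The median log2 FC was -0.29 in the gastrocnemius and -0.25 in the quadriceps, and that of all genes was -0.0043 and -0.01. Col14a1, Col6a1, Col6a2 and Lum fell in both muscles, which is 40% of the gastrocnemius calls and 30.8% of the quadriceps calls. Both comparisons share the HSA-LR libraries with those against WT mice, so a chance high value in HSA-LR mice would appear as a rise in the first and a fall in the second.

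Leaving out single libraries also changed the counts of treatment calls, again without the share of all genes beside them. Lama2 and Thbs4 in the gastrocnemius and Col5a3 and Lum in the quadriceps stayed called whichever 1 of the 9 mice was left out. The count in the gastrocnemius was 2, 3 and 7 without HSA-LR mouse 1, 2 and 3, 7 without WT mouse 2, 11 without WT mouse 3, 13 without Pip6a-PMO mouse 1 and 8 without Pip6a-PMO mouse 3, the library of low 5' coverage. The count in the quadriceps was 3 and 4 without HSA-LR mouse 1 and 2, 7 and 8 without Pip6a-PMO mouse 2 and 3, and 12 and 14 without WT mouse 2 and 3. The 5' to 3' ratio was -1.82 to -1.70 in the HSA-LR quadriceps libraries and -1.71 to -1.66 in the Pip6a-PMO ones, and with this ratio as a covariate 1 gene, Lum, was called there. Thbs4 in the gastrocnemius and Lum in the quadriceps were called under each of the 18 alternatives.

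**Figure D2:**
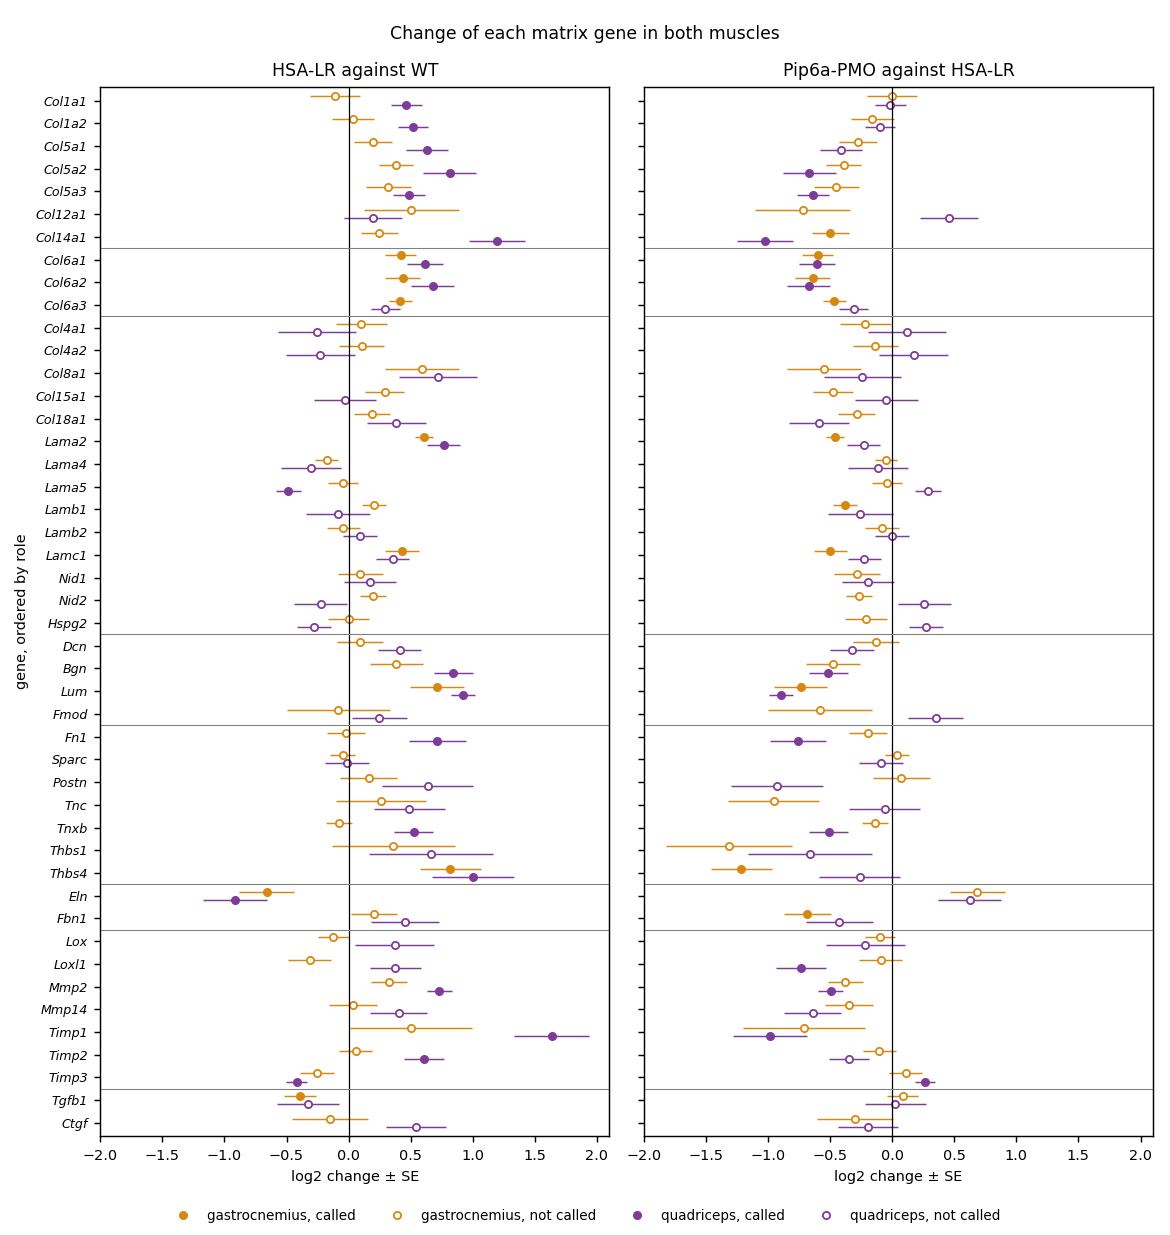
Log2 FC with standard error of each matrix gene in HSA-LR against WT mice (left) and in Pip6a-PMO against HSA-LR mice (right), in gastrocnemius (orange) and quadriceps (purple), filled where the gene was called. The called genes lie to the right of 0 on the left panel, apart from Eln, Lama5, Timp3 and Tgfb1, and to the left of 0 on the right panel, apart from Timp3.

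The 3 chains of collagen VI, Col6a1, Col6a2 and Col6a3, were called together in both comparisons of the gastrocnemius. Col6a1 stood at 95.0, 90.9 and 84.1 CPM in WT, 127, 121 and 114 CPM in HSA-LR and 96.5, 69.0 and 73.3 CPM in Pip6a-PMO gastrocnemius. In the quadriceps it stood at 71.2, 58.4 and 74.5 CPM in WT, 108, 106 and 99.4 CPM in HSA-LR and 76.9, 75.1 and 53.6 CPM in Pip6a-PMO mice. Every HSA-LR library lay above every WT and every treated library of its muscle, and the treated and WT groups overlapped. Col6a1 rose by a log2 FC of 0.42 ± 0.12 (adjusted p = 0.0637) in the gastrocnemius and 0.62 ± 0.14 (adjusted p = 0.0236) in the quadriceps of HSA-LR mice, and fell on treatment by 0.60 ± 0.12 (adjusted p = 0.0279) and 0.61 ± 0.14 (adjusted p = 0.0425). Col6a3, the long chain of the heterotrimer, measured 53.2, 56.8 and 47.3 CPM in WT, 72.2, 69.1 and 68.7 CPM in HSA-LR and 54.6, 51.9 and 45.5 CPM in Pip6a-PMO gastrocnemius. The HSA-LR libraries again stood apart, with a log2 FC of 0.42 ± 0.09 (adjusted p = 0.0238) against WT and -0.47 ± 0.09 (adjusted p = 0.0264) for treated against HSA-LR mice. In the quadriceps, the log2 FC of Col6a3 was 0.30 ± 0.12 (adjusted p = 0.134) and -0.31 ± 0.12 (adjusted p = 0.141).

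Col6a2 gave log2 FC values of 0.43 ± 0.14 and 0.68 ± 0.17 in HSA-LR against WT gastrocnemius and quadriceps (adjusted p = 0.0924 and 0.0318) and of -0.64 ± 0.14 and -0.67 ± 0.17 in treated against HSA-LR mice (adjusted p = 0.0372 and 0.0518). Its gene lies next to Col6a1 on the same strand, at chr10:76595762-76623630 and chr10:76708792-76726168 on GRCm38, while Col6a3 lies at chr1:90765923-90843971. The gastrocnemius calls of Col6a1 and Col6a2 in HSA-LR against WT mice were lost without any 1 of the 3 WT or the 3 HSA-LR mice (adjusted p up to 0.204 and 0.239). On treatment, both were lost in either muscle without HSA-LR mouse 1 or 2, Col6a2 in the gastrocnemius also without HSA-LR mouse 3, and Col6a3 without HSA-LR mouse 1 (adjusted p up to 0.141).

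Among the 14 basement membrane genes, Lama2 rose in HSA-LR mice of both muscles, while collagen IV, the nidogens and perlecan (Hspg2) were not called in any comparison. Lama2, the laminin chain of the muscle fibre and the gene of merosin-deficient muscular dystrophy, stood at 56.4, 51.1 and 51.1 CPM in WT, 81.4, 77.7 and 82.9 CPM in HSA-LR and 58.9, 58.2 and 58.9 CPM in Pip6a-PMO gastrocnemius. The 3 treated mice lay above the WT mice and far below the HSA-LR mice. Its log2 FC in the gastrocnemius was 0.61 ± 0.07 (adjusted p = 0.00103) in HSA-LR against WT and -0.46 ± 0.07 (adjusted p = 0.00985) in treated against HSA-LR mice, the latter with an adjusted p of 0.395 when the largest bin stood for the gene. In the quadriceps, Lama2 measured 41.03, 50.8 and 47.4 CPM in WT, 67.7, 86.2 and 83.0 CPM in HSA-LR and 64.3, 77.1 and 60.6 CPM in Pip6a-PMO mice. Here the treated mice overlapped the HSA-LR mice and all 3 stayed above the WT mice. The log2 FC was 0.77 ± 0.13 (adjusted p = 0.00661) in HSA-LR against WT, -0.23 ± 0.13 (adjusted p = 0.296) in treated against HSA-LR and 0.54 ± 0.13 (adjusted p = 0.14) between treated and WT mice.

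Lamc1, the gamma chain shared by most laminins, measured 96.4, 103 and 80.8 CPM in WT, 123.1, 125 and 130.2 CPM in HSA-LR and 98.6, 97.5 and 71.8 CPM in Pip6a-PMO gastrocnemius, and all HSA-LR mice lay above the others. It rose by 0.43 ± 0.13 (adjusted p = 0.076) and fell on treatment by 0.50 ± 0.13 (adjusted p = 0.066) on the log2 scale. Lamb1, a beta chain, fell on treatment in the gastrocnemius by 0.38 ± 0.10 (adjusted p = 0.0597). Lama5, a laminin alpha chain of vessels and the neuromuscular junction, fell in the HSA-LR quadriceps by 0.48 ± 0.10 (adjusted p = 0.0169), from 91.2, 79.4 and 94.2 CPM in WT to 65.0, 59.9 and 64.4 CPM. Its treated mice measured 66.9, 83.4 and 80.5 CPM, all above the HSA-LR mice, with a log2 FC of 0.29 ± 0.10 (adjusted p = 0.127). The genotype call of Lamc1 was lost without WT mouse 1 or 3 or any HSA-LR mouse, its treatment call without any HSA-LR mouse and that of Lamb1 without any HSA-LR mouse or Pip6a-PMO mouse 2 (adjusted p up to 0.201). Over all 18 alternatives the adjusted p reached 0.665 for Lamb1 on treatment and 0.228 for Lamc1 against WT.

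Col4a1 and Col4a2, whose starts overlap on opposite strands at chr8:11198423-11312826 and chr8:11312805-11449287, varied more among mice of a group than between groups. In the WT quadriceps alone, Col4a1 ran from 165 to 351 CPM, and its log2 FC in HSA-LR mice was -0.26 ± 0.32 (adjusted p = 0.664). Hspg2 measured 239.97, 230.5 and 294 CPM in WT, 216, 213 and 200.4 CPM in HSA-LR and 246, 302 and 213 CPM in Pip6a-PMO quadriceps. All HSA-LR mice lay below the WT mice, with a log2 FC of -0.28 ± 0.14 (adjusted p = 0.22). Of the other basement membrane collagens and laminins, Col8a1, Col15a1, Col18a1, Lama4 and Lamb2 passed no test in any of the 6 comparisons between groups.

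Of the 7 fibrillar collagens and their partners, 6 rose in the quadriceps of HSA-LR mice (Col1a1, Col1a2, Col5a1, Col5a2, Col5a3 and Col14a1), beside 20.3% of all genes called there. In the gastrocnemius edgeR called 0 of 7, beside 15.5% of all genes. At an unadjusted p under 0.05 there was 1 of 7, beside 3915 of 15625 genes. Col1a1, a chain of collagen I, stood at 166, 148 and 153 CPM in WT, 225, 211 and 208 CPM in HSA-LR and 239, 230.5 and 169 CPM in Pip6a-PMO quadriceps. The treated mice spanned the range of the HSA-LR mice and lay above the WT mice. Its log2 FC was 0.46 ± 0.13 (adjusted p = 0.0409) in HSA-LR against WT and -0.02 ± 0.13 (adjusted p = 0.95) in treated against HSA-LR mice. Col1a2, the other chain of collagen I, stood at 269, 268 and 218 CPM in WT, 366, 361 and 354 CPM in HSA-LR and 369, 362 and 281 CPM in treated quadriceps, with log2 FC values of 0.52 ± 0.12 (adjusted p = 0.0235) and -0.10 ± 0.12 (adjusted p = 0.647). Both chains thus lay in treated mice near the HSA-LR level, apart from Pip6a-PMO mouse 3.

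Col14a1, a collagen that lies along interstitial fibrils, had the largest rise of the group. It measured 21.4, 15.8 and 12.4 CPM in WT, 35.5, 39.7 and 38.3 CPM in HSA-LR and 24.6, 15.5 and 15.7 CPM in Pip6a-PMO quadriceps. The HSA-LR mice stood clear of both other groups, which overlapped, and the log2 FC was 1.19 ± 0.23 (adjusted p = 0.0102) against WT and -1.02 ± 0.23 (adjusted p = 0.0326) on treatment. In the gastrocnemius it measured 22.8, 18.8 and 21.6 CPM in WT, 26.3, 23.5 and 25.3 CPM in HSA-LR and 21.02, 13.6 and 18.5 CPM in treated mice, and fell on treatment by 0.50 ± 0.15 (adjusted p = 0.0911). Of the collagen V chains, which set the diameter of collagen I fibrils, Col5a3 measured 40.1, 38.4 and 38.6 CPM in WT, 60.8, 59.2 and 43.9 CPM in HSA-LR and 39.3, 33.5 and 32.5 CPM in Pip6a-PMO quadriceps. Its HSA-LR mice lay above both other groups, mouse 3 by little. Col5a3 gave 0.48 ± 0.13 (adjusted p = 0.0382) and -0.64 ± 0.13 (adjusted p = 0.0249), and Col5a2 gave 0.81 ± 0.21 (adjusted p = 0.0367) and -0.67 ± 0.21 (adjusted p = 0.0933). Col5a1 rose by 0.63 ± 0.17 (adjusted p = 0.0394), and Col12a1 was not called (0.20 ± 0.24, adjusted p = 0.649), with mice of a group spread from 3.42 to 11.003 CPM in the treated gastrocnemius.

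Left out singly, WT mouse 2 and HSA-LR mouse 1 each ended the genotype calls of Col1a1, Col5a1 and Col5a2 in the quadriceps, WT mouse 3 those of Col1a1 and Col5a1, HSA-LR mouse 2 those of Col5a1, Col5a2 and Col5a3, and HSA-LR mouse 1 that of Col5a3 (adjusted p up to 0.141). The treatment call of Col14a1 was lost in the quadriceps without Pip6a-PMO mouse 2 (adjusted p = 0.104) and in the gastrocnemius without any 1 of 7 of the 9 mice (adjusted p up to 0.261), and that of Col5a2 without any of 7 of 9 (adjusted p up to 0.228).

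**Figure D3:**
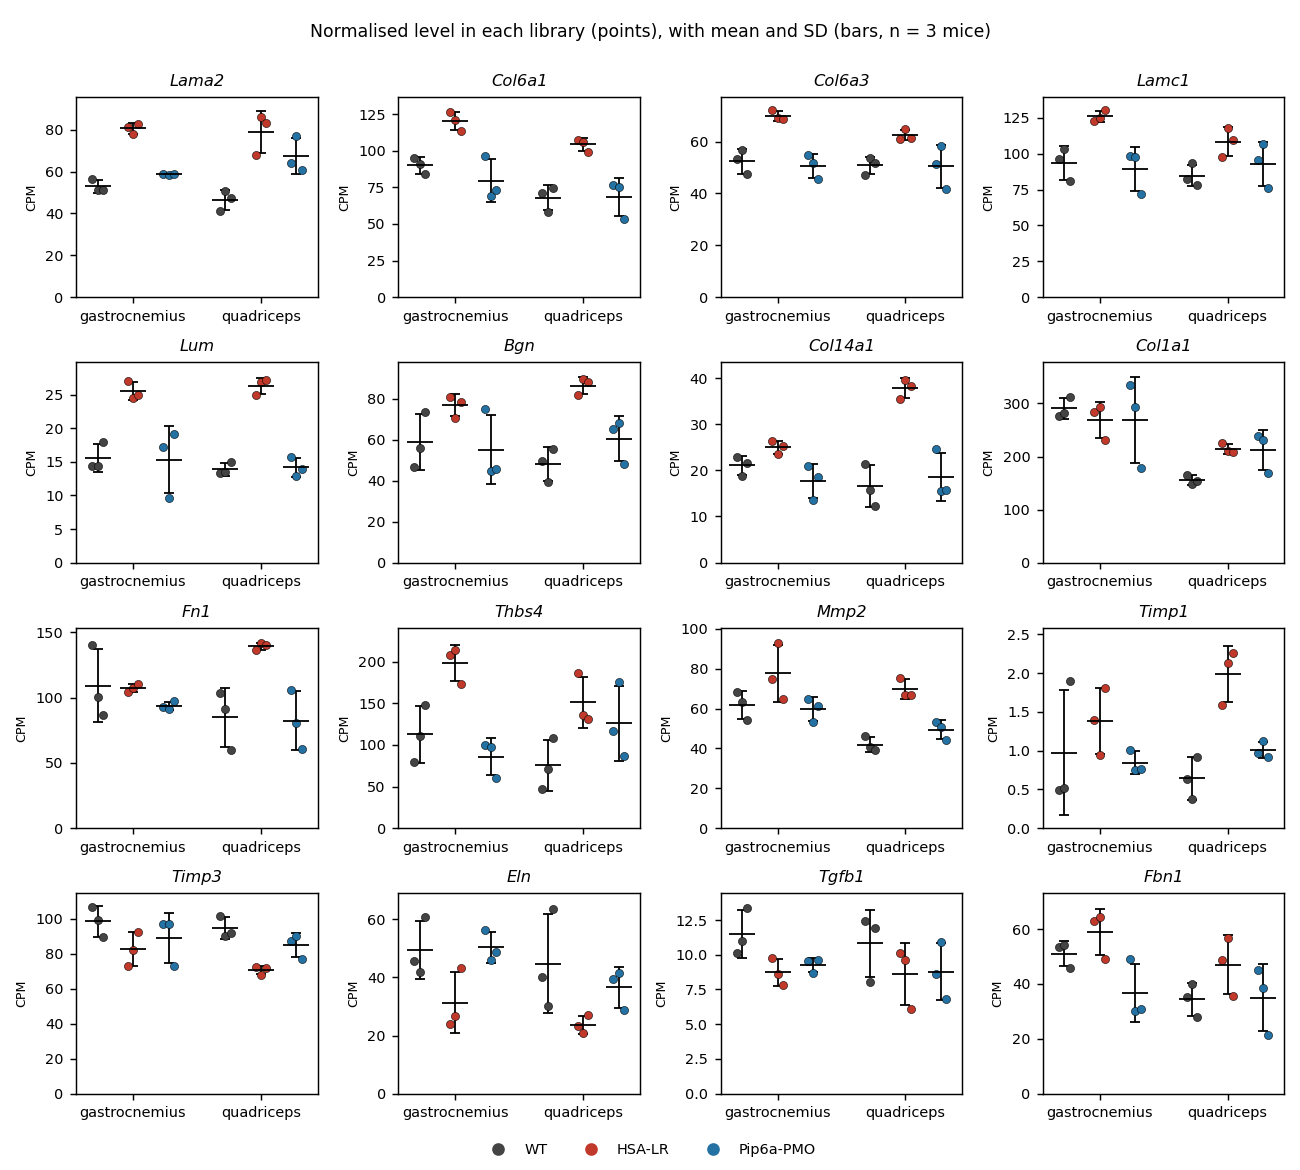
CPM of 16 matrix genes in each library (points), with the mean and SD of the 3 mice of a group (bars), WT in grey, HSA-LR in red and Pip6a-PMO in blue. For Lum in the quadriceps the HSA-LR mice sit at 24.9 to 27.2 CPM, above the WT mice at 13.3 to 14.98 and the treated mice at 12.9 to 15.7, whereas for Col1a1 treated and HSA-LR mice overlap.

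Lum (lumican), a leucine-rich proteoglycan that spaces collagen fibrils, had the smallest p of the matrix genes in both comparisons of the quadriceps. It stood at 13.3, 13.4 and 14.98 CPM in WT, 24.9, 26.8 and 27.2 CPM in HSA-LR and 15.7, 12.9 and 13.9 CPM in Pip6a-PMO quadriceps. Treated and WT mice covered the same range and the HSA-LR mice stood apart, with log2 FC values of 0.92 ± 0.10 (adjusted p = 0.000689) and -0.90 ± 0.10 (adjusted p = 0.00204). In the gastrocnemius Lum measured 14.4, 14.4 and 17.9 CPM in WT, 27.0, 24.5 and 25.0 CPM in HSA-LR and 17.1, 9.66 and 19.1 CPM in treated mice. The groups were arranged in the same way, with 0.71 ± 0.22 (adjusted p = 0.0695) and -0.74 ± 0.22 (adjusted p = 0.0846). These gastrocnemius calls were lost without WT mouse 1 or 2 or any HSA-LR mouse, and the treatment call also without Pip6a-PMO mouse 1 (adjusted p up to 0.193 and 0.236).

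Bgn (biglycan), a related proteoglycan that binds collagen and growth factors, measured 49.7, 39.3 and 55.8 CPM in WT, 81.8, 89.7 and 88.1 CPM in HSA-LR and 65.4, 68.3 and 48.1 CPM in Pip6a-PMO quadriceps. The treated mice lay below all HSA-LR mice and overlapped the WT mice. Bgn rose by 0.84 ± 0.16 (adjusted p = 0.00953) and fell on treatment by 0.51 ± 0.16 (adjusted p = 0.0813), the latter lost without any 1 of 7 of the 9 mice (adjusted p up to 0.199). Dcn (decorin), which lies next to Lum at chr10:97479609-97518143 and chr10:97565128-97572703, gave 0.41 ± 0.18 (adjusted p = 0.161) and -0.33 ± 0.17 (adjusted p = 0.27) in the quadriceps. Fmod (fibromodulin) ran from 64.2 to 135 CPM over the WT and HSA-LR gastrocnemius and was not called. In the treated quadriceps it measured 78.7, 87.9 and 85.2 CPM, above all HSA-LR mice (60.2 to 71.1 CPM) and all WT mice (36.3 to 76.6 CPM). Its log2 FC there was 0.35 ± 0.22 (adjusted p = 0.344) against HSA-LR and 0.60 ± 0.22 (adjusted p = 0.317) against WT mice.

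Fn1 (fibronectin), a glycoprotein that cells assemble into fibrils before collagen, rose in the quadriceps of HSA-LR mice and was not called in the gastrocnemius. In the quadriceps Fn1 measured 104, 91.1 and 59.9 CPM in WT, 136, 142 and 140.03 CPM in HSA-LR and 106, 80.4 and 60.7 CPM in Pip6a-PMO mice. WT and treated mice covered the same wide range, and the HSA-LR mice lay close together above it. The log2 FC was 0.71 ± 0.23 (adjusted p = 0.0702) against WT and -0.76 ± 0.23 (adjusted p = 0.0787) on treatment. In the gastrocnemius Fn1 stood at 140.4, 100.2 and 86.7 CPM in WT, 105, 107 and 110.5 CPM in HSA-LR and 93.0, 91.2 and 97.2 CPM in treated mice. The WT mice spanned the other groups there, with -0.02 ± 0.15 (adjusted p = 0.948) and -0.20 ± 0.15 (adjusted p = 0.483). In the quadriceps, the genotype call was lost without WT mouse 2 or 3, any HSA-LR mouse or Pip6a-PMO mouse 2, and the treatment call without any HSA-LR mouse or Pip6a-PMO mouse 2 or 3 (adjusted p up to 0.162 and 0.188).

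Of the matricellular proteins, Thbs4 (thrombospondin 4), which is abundant in tendon and at the junction of muscle and tendon, was called in both muscles. In the gastrocnemius it measured 79.2, 110.3 and 148 CPM in WT, 208, 214 and 174 CPM in HSA-LR and 99.8, 96.9 and 59.9 CPM in Pip6a-PMO mice. All HSA-LR mice lay above both other groups, with log2 FC values of 0.82 ± 0.24 (adjusted p = 0.0647) and -1.22 ± 0.25 (adjusted p = 0.0261). In the quadriceps it stood at 46.8, 71.5 and 108 CPM in WT, 186, 136 and 131 CPM in HSA-LR and 116, 175 and 87.0 CPM in treated mice, which overlapped both groups. It rose by 1.002 ± 0.33 (adjusted p = 0.0775) and its treatment log2 FC was -0.26 ± 0.33 (adjusted p = 0.642). Summed over 5 tenocyte markers that are not on the list, the level was 24.5 to 41.3 CPM in WT, 24.4 to 41 CPM in HSA-LR and 15.3 to 32.8 CPM in treated gastrocnemius, and 15.3 to 24.5, 19.8 to 23.2 and 29.6 to 32.9 CPM in the quadriceps. The part of tendon content in the values of Thbs4 was not tested. Both genotype calls of Thbs4 were lost without WT mouse 1 or 2 or any HSA-LR mouse, and that of the quadriceps also without Pip6a-PMO mouse 1 (adjusted p up to 0.179 and 0.225).

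Tnxb (tenascin X), which joins collagen fibrils, rose in the HSA-LR quadriceps by 0.52 ± 0.16 (adjusted p = 0.0561) and fell on treatment by 0.51 ± 0.16 (adjusted p = 0.0813). Each call was lost without HSA-LR mouse 1 or 2, the first also without WT mouse 2 or 3 and the second without Pip6a-PMO mouse 2 or 3 (adjusted p up to 0.211). Sparc, a collagen-binding protein and the most abundant of these genes per kilobase, ran from 278 to 339.98 CPM over the gastrocnemius libraries, with log2 FC values between -0.10 and 0.04 in the 6 comparisons. Postn, Tnc and Thbs1, which respond to injury and load, were not called, and their mice differed widely within groups. Thbs1 measured 31.8, 31.6 and 7.82 CPM in HSA-LR gastrocnemius.

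Eln (elastin) went the other way. It stood at 40.2, 30.2 and 63.5 CPM in WT, 23.3, 20.8 and 27.0 CPM in HSA-LR and 39.5, 41.6 and 28.6 CPM in Pip6a-PMO quadriceps. All HSA-LR mice lay below both other groups, with log2 FC values of -0.91 ± 0.26 (adjusted p = 0.0457) and 0.62 ± 0.25 (adjusted p = 0.161). In the gastrocnemius it measured 45.7, 41.8 and 60.8 CPM in WT, 23.9, 26.7 and 43.3 CPM in HSA-LR and 56.2, 45.9 and 48.9 CPM in treated mice. HSA-LR mouse 3 overlapped the WT mice, the log2 FC was -0.66 ± 0.22 (adjusted p = 0.0973), and for treated against HSA-LR mice it was 0.68 ± 0.22 (adjusted p = 0.112). The gastrocnemius call was lost without any 1 of 8 of the 9 mice (adjusted p up to 0.266) and the quadriceps call without WT mouse 3 or HSA-LR mouse 1 or 2 (adjusted p up to 0.135). Fbn1 (fibrillin 1), the microfibril on which elastin is laid down, fell on treatment in the gastrocnemius by 0.68 ± 0.19 (adjusted p = 0.0718), from 63.0, 64.4 and 49.2 CPM to 49.0, 30.2 and 30.8 CPM, a call lost without WT mouse 2, HSA-LR mouse 1 or 2 or Pip6a-PMO mouse 2 or 3 (adjusted p up to 0.222).

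Among the enzymes and inhibitors of matrix turnover, 4 of 7 were called in each comparison of the quadriceps with HSA-LR mice, and 0 of 7 in each of those of the gastrocnemius by edgeR (1 of 7 at an unadjusted p under 0.05 in each). Of all genes, 20.3% were called in HSA-LR against WT and 13.8% in treated against HSA-LR quadriceps, and 15.5% and 10% in the gastrocnemius. There, 3915 and 3423 of 15625 genes had an unadjusted p under 0.05. None of the 7 was called for a difference between the muscles in either change. Mmp2, a gelatinase made by fibroblasts, measured 46.3, 40.5 and 39.1 CPM in WT, 75.4, 66.9 and 66.7 CPM in HSA-LR and 53.3, 50.8 and 44.3 CPM in Pip6a-PMO quadriceps. The HSA-LR mice stood above both other groups, with 0.73 ± 0.10 (adjusted p = 0.00258) and -0.49 ± 0.10 (adjusted p = 0.026), the latter 0.106 without HSA-LR mouse 1. In the gastrocnemius the WT and HSA-LR groups overlapped, with Mmp2 at 68.2, 63.5 and 54.2 CPM in WT and 75.1, 93.1 and 64.9 CPM in HSA-LR mice. Treated mice there measured 64.8, 53.4 and 61.3 CPM, all below the HSA-LR mice, the highest by little. The log2 FC was 0.33 ± 0.14 (adjusted p = 0.19) against WT and -0.38 ± 0.14 (adjusted p = 0.161) on treatment. Timp1, an inhibitor of metalloproteinases induced in injured tissue, was low throughout. It stood at 0.634, 0.37 and 0.918 CPM in WT (42 to 106 counts), 1.58, 2.13 and 2.26 CPM in HSA-LR (171 to 294 counts) and 0.968, 1.13 and 0.923 CPM in Pip6a-PMO quadriceps (107 to 133 counts). All HSA-LR mice lay above the treated and the WT mice, with 1.63 ± 0.30 (adjusted p = 0.0095) and -0.99 ± 0.30 (adjusted p = 0.0798). The lowest treated mouse (0.923 CPM) lay barely above the highest WT mouse (0.918 CPM), and edgeR made no call between these groups (adjusted p = 0.42).

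Timp2 rose in the HSA-LR quadriceps by 0.60 ± 0.16 (adjusted p = 0.0385). Timp3, an inhibitor bound to the matrix, fell there by 0.42 ± 0.08 (adjusted p = 0.013), from 102, 90.2 and 91.9 CPM to 72.2, 68.1 and 71.9 CPM, and rose on treatment by 0.26 ± 0.08 (adjusted p = 0.0919) to 87.4, 90.2 and 77.3 CPM. Of the lysyl oxidases, Loxl1 fell on treatment in the quadriceps by 0.73 ± 0.20 (adjusted p = 0.0642), and Lox was not called. Mmp14, a membrane-bound activator of Mmp2, gave -0.64 ± 0.23 (adjusted p = 0.125) on treatment. The treatment calls of Timp1, Timp3 and Loxl1 were lost without HSA-LR mouse 1, HSA-LR mouse 2 or Pip6a-PMO mouse 2, among others (adjusted p up to 0.204, 0.244 and 0.191), and the genotype call of Timp2 without HSA-LR mouse 1 (adjusted p = 0.127).

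Tgfb1, the main inducer of matrix genes in fibroblasts, fell in the gastrocnemius of HSA-LR mice. It measured 10.1, 10.998 and 13.4 CPM in WT, 9.74, 8.64 and 7.84 CPM in HSA-LR and 9.55, 8.65 and 9.59 CPM in Pip6a-PMO mice. The treated mice lay within the HSA-LR range and below all WT mice. The log2 FC was -0.39 ± 0.13 (adjusted p = 0.0872), lost without WT mouse 2 or 3, any HSA-LR mouse or Pip6a-PMO mouse 1 or 2 (adjusted p up to 0.248), and 0.08 ± 0.13 (adjusted p = 0.746) for treated against HSA-LR mice. In the quadriceps it was -0.33 ± 0.25 (adjusted p = 0.443). Ctgf, a matricellular factor downstream of transforming growth factor beta, was not called in any comparison between groups, with 0.54 ± 0.24 (adjusted p = 0.183) in the HSA-LR quadriceps.

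Treated mice were also set against WT mice. None of the 46 matrix genes was called by edgeR in either muscle, against 1.04% of all genes in the gastrocnemius and 1.41% in the quadriceps. At an unadjusted p under 0.05 there were 4 of 46 in the gastrocnemius, all lower in treated mice, and 7 of 46 in the quadriceps, all higher. Over all genes, 1641 of 15625 and 1947 of 15574 were under it, which is near the share of the matrix genes. DESeq2 called 0 and 3. The share of all genes is not given here for DESeq2 or for the fits without single mice below. In the gastrocnemius the smallest p values were those of Fbn1 (-0.48 ± 0.19, adjusted p = 0.419), Lama4 (-0.23 ± 0.09, adjusted p = 0.421) and Tgfb1 (-0.31 ± 0.13, adjusted p = 0.434). Lama4, a laminin chain of vessels, measured 35.1, 34.8 and 39.7 CPM in WT and 33.2, 31.3 and 29.3 CPM in treated mice, without overlap. In the quadriceps they were those of Lama2, Col1a1 (0.45 ± 0.13, adjusted p = 0.196) and Col1a2 (0.42 ± 0.12, adjusted p = 0.209), for which all treated mice lay above all WT mice. A missed threshold with 3 mice a group does not show that treated and WT mice were alike. Without Pip6a-PMO mouse 3, 3 genes were called in the quadriceps, all higher, and without WT mouse 3, 1 gene was, while in the gastrocnemius Fbn1 was called without Pip6a-PMO mouse 1 (log2 FC -0.75).

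Whether a change differed between the muscles was asked of an interaction term, fitted over all 18 libraries together. This fit, also used to compare the muscles of WT mice, did not pair the muscles of a mouse. Deviations from the group mean correlated between them (median r 0.324). None of the 46 genes was called for the genotype change or for the treatment change by edgeR or by DESeq2, against 0% and 0% of all genes. At an unadjusted p under 0.05 there were 8 of 46 genes for the genotype change, beside 710 of all 16167 genes. Of these 8, 7 had a lower log2 FC in the gastrocnemius than in the quadriceps. For the treatment change there were 4 of 46, near the share of all genes (1271 of 16167). The smallest p values for the genotype change were those of Col14a1 (gastrocnemius minus quadriceps -0.93 ± 0.29, adjusted p = 0.829) and Tnxb (-0.59 ± 0.19, adjusted p = 0.852), and Fn1 gave -0.72 ± 0.29 (adjusted p = 0.9999), so a call in 1 muscle and not in the other is not shown here to be a difference between them. Between the muscles of WT mice, 2 of 46 genes were called, against 0.297% of all genes. Col1a2 was higher in the gastrocnemius by 0.85 ± 0.16 (adjusted p = 0.0492) and Col1a1 by 0.91 ± 0.18 (adjusted p = 0.0675). With the mouse as a block 10 genes were called and with DESeq2 6, all higher in the gastrocnemius, and without any 1 of the 3 WT mice, HSA-LR mouse 1 or HSA-LR mouse 2 the count was 0, against 3 without HSA-LR mouse 3 and 5 without Pip6a-PMO mouse 3. The shares of all genes called under these alternatives are not given here.

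Markers of several cell types moved beside the matrix genes. In the quadriceps 20.3% of all genes were called in HSA-LR against WT and 13.8% in treated against HSA-LR mice. In the gastrocnemius these shares were 15.5% and 10%. Small counts such as 1 of 9 or 2 of 8 are not far from them. The summed level of 9 fibroblast and progenitor markers that are not among the genes measured here was 896 to 1299 CPM in WT, 1429 to 1767 CPM in HSA-LR and 919 to 1146 CPM in Pip6a-PMO quadriceps, with 4 of 9 called higher in HSA-LR mice and 5 of 9 lower on treatment. In the gastrocnemius the sum was 1259 to 1577, 1277 to 1576 and 1140 to 1875 CPM, with 0 of 9 higher and 1 of 9 lower in HSA-LR mice. Macrophage markers followed the fibroblast markers in the quadriceps. Their summed level was 49.9 to 70.8 CPM in WT, 92.8 to 125 CPM in HSA-LR and 47.96 to 71.8 CPM in treated quadriceps, with 6 of 8 higher and 6 of 8 lower, and in the gastrocnemius 2 of 8 were higher and 3 of 8 lower. Of the endothelial, mural (pericyte and smooth muscle) and Schwann cell markers, 5 of 8, 5 of 7 and 4 of 5 were lower in the HSA-LR quadriceps. Satellite cell markers summed to 5.24 to 6.36 CPM in WT, 9.06 to 10.03 CPM in HSA-LR and 5.68 to 8.35 CPM in treated gastrocnemius, and to 4.10 to 6.11, 8.55 to 12.05 and 9.30 to 11.46 CPM in the quadriceps, with 2 of 4 higher in HSA-LR mice of each muscle. Markers of the muscle fibres were lower in HSA-LR than in WT and treated quadriceps. They summed to 1.24e+05 to 1.479e+05 CPM in WT, 1.009e+05 to 1.174e+05 CPM in HSA-LR and 1.312e+05 to 1.607e+05 CPM in treated quadriceps, with 1 of 8 higher and 3 of 8 lower in HSA-LR mice and 4 of 8 higher on treatment. In the gastrocnemius they summed to 1.127e+05 to 1.418e+05, 1.082e+05 to 1.184e+05 and 1.257e+05 to 1.858e+05 CPM, with 2 of 8 higher in HSA-LR mice and 3 of 8 higher and 2 of 8 lower on treatment. No listed marker was at 0. The part of cell number in the matrix changes was not tested.

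Other genes of the same pathways were taken from a list of 151, of which 141 were in the files. In HSA-LR against WT mice, 20 of 135 tested changed in the gastrocnemius (14.8%, 10 higher and 10 lower) and 33 of 133 in the quadriceps (24.8%, 20 higher and 13 lower), beside 15.5% and 20.3% of all genes. In treated against HSA-LR mice 15 (11.1%, 3 higher and 12 lower) and 34 (25.6%, 13 higher and 21 lower) changed, beside 10% and 13.8% of all genes. Of 16 genes for making and processing collagen, 1 changed in the gastrocnemius and 3 in the quadriceps of HSA-LR mice. A few of the list are named with their values in view. Tgfb3, a ligand of the same receptors as Tgfb1, measured 28.5, 29.7 and 31.9 CPM in WT, 71.3, 68.3 and 60.3 CPM in HSA-LR and 28.8, 25.0 and 31.1 CPM in treated gastrocnemius. It rose by 1.15 ± 0.10 (adjusted p = 0.000337) and fell on treatment by 1.23 ± 0.10 (adjusted p = 0.000969), with 1.06 ± 0.10 and -0.91 ± 0.10 in the quadriceps, while Tgfb1 did not rise.

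Itgb1, the integrin beta chain of most matrix receptors, measured 189, 171 and 215 CPM in WT, 322, 279.8 and 338 CPM in HSA-LR and 212, 214 and 191 CPM in treated gastrocnemius. It rose by 0.71 ± 0.11 (adjusted p = 0.00499) and by 0.74 ± 0.08 in the quadriceps, and fell on treatment by 0.61 ± 0.11 and 0.44 ± 0.08. Ltbp1, which stores latent transforming growth factor beta in the matrix, rose by 1.16 ± 0.11 in the gastrocnemius and 1.28 ± 0.17 in the quadriceps of HSA-LR mice. Ltbp1 was also called higher in treated than in WT mice, by 0.65 ± 0.11 (adjusted p = 0.0452) and 0.88 ± 0.17 (adjusted p = 0.0659). Col9a1, a collagen of cartilage at a low level in muscle, stood at 1.53, 1.17 and 1.15 CPM in WT, 10.7, 9.91 and 10.3 CPM in HSA-LR and 10.4, 3.75 and 8.32 CPM in treated gastrocnemius, and was higher by 3.01 ± 0.33 in HSA-LR and 2.55 ± 0.32 (adjusted p = 0.0114) in treated than in WT mice. Adamts9, a protease that cleaves versican, fell in the HSA-LR quadriceps by 1.39 ± 0.17 and rose on treatment by 0.85 ± 0.17 (adjusted p = 0.0242).

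**Figure D4:**
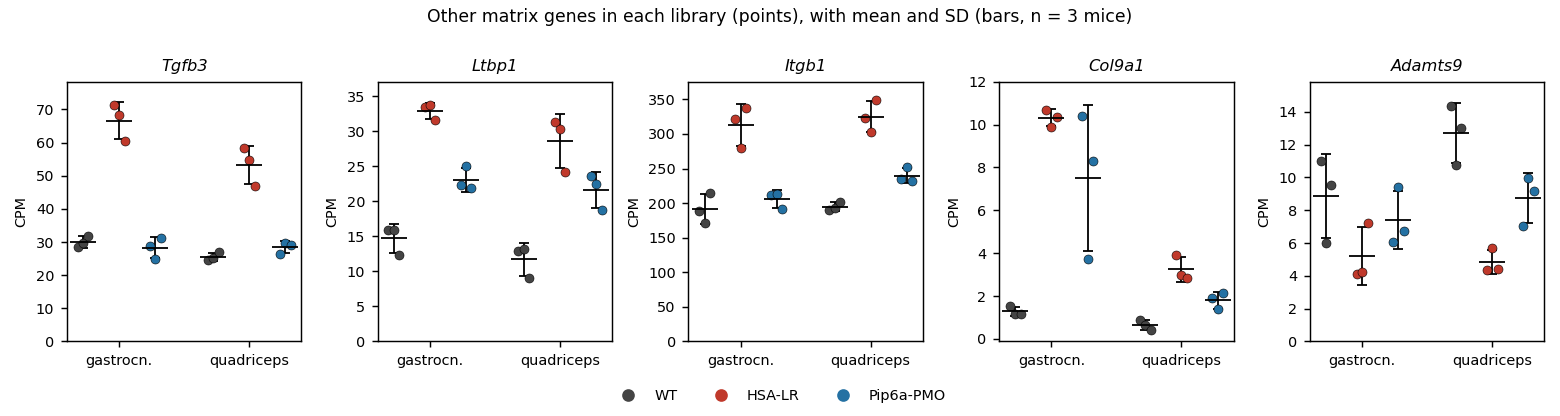
CPM of 5 further matrix genes in each library (points), with the mean and SD of the 3 mice of a group (bars). Tgfb3 and Itgb1 return in treated mice toward the WT points, whereas for Ltbp1 all treated mice lie between the WT and the HSA-LR mice.

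Fn1 is spliced at 2 cassette exons, extra domains A and B (EDA and EDB), which mark the cellular form made in embryonic and wounded tissue, and at a variable region that differs between plasma and cellular forms. The junctions into and out of each exon and the junction that skips it are printed, 15 bases from each side, with the bases of the cassette exon in capitals and Fn1 read from its minus strand (GENCODE M21 transcripts, GRCm38). EDA is chr1:71603660-71603929, 270 bases, in 4 annotated transcripts and skipped in 4.
Fn1 into EDA: aaactgcagtgaccaACATTGATCGCCCTA
Fn1 out of EDA: GAATCCAGTCCACAGccattcctgcgccca
Fn1 without EDA: aaactgcagtgaccaccattcctgcgccca
EDB is chr1:71613763-71614035, 273 bases, in 1 annotated transcript and skipped in 7.
Fn1 into EDB: ataccgttgtcccagAGGTGCCCCAGCTCA
Fn1 out of EDB: TGACACAGCAAACGGctgtccctcctccca
Fn1 without EDB: ataccgttgtcccagctgtccctcctccca

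Use of an exon was measured as its counts per base over the counts per base of its neighbouring exons. EDA density was 2.82%, 3.48% and 5.88% in WT, 4.87%, 4.86% and 4.64% in HSA-LR and 2.83%, 4.56% and 2.84% in Pip6a-PMO gastrocnemius. All treated mice lay below all HSA-LR mice there, and WT mice overlapped both. In the quadriceps it was 4.03%, 2.98% and 8.74% in WT, 3.71% to 4.62% in HSA-LR and 2.59% to 5.37% in treated mice, and the 3 groups overlapped. EDB density was 7.82% to 9.998% in HSA-LR and 4.13% to 7.004% in treated quadriceps, without overlap, while WT mice at 6.13% to 10.6% overlapped both and the groups overlapped in the gastrocnemius. EDA rested on 10 to 43 counts a library and EDB on 7 to 46, so small changes were not detectable at this depth. The variable region, on 530 to 1373 counts, stood at 81.4% to 87.7% in WT and 78.9% to 80.7% in HSA-LR gastrocnemius, without overlap, and the other pairs of groups compared overlapped. The bins of Fn1 that passed the filter, 58 in each muscle, were tested against the rest of the gene with diffSpliceDGE of edgeR. None was called in any of the 6 comparisons by this test or by limma's diffSplice, with 1 bin at an unadjusted p under 0.05 in treated against HSA-LR gastrocnemius and 0 in the other 5. The background in bins of all genes in the gastrocnemius was 0.673% between HSA-LR and WT, 0.248% between treated and HSA-LR and 0.0602% between treated and WT mice, and in the same order 0.278%, 0.164% and 0.0266% in the quadriceps. EDA gave a relative log2 change of 0.46 (adjusted p = 1 by edgeR) in the HSA-LR gastrocnemius.

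Over the 46 genes, 1608 bins were tested in the gastrocnemius and 1618 in the quadriceps. In the gastrocnemius, 3 were called between HSA-LR and WT, 1 between treated and HSA-LR and 0 between treated and WT mice, and in the quadriceps 1, 2 and 0. All are named here after their values were seen. The 4 of the gastrocnemius lay in Lama2 (bins 060, 064 and 070, higher in HSA-LR mice by 1.62, 1.48 and 1.61 relative to the gene, and bin 066, with -1.88 on treatment). They held 2 to 44 counts a library there, and since bins are numbered along the chromosome and Lama2 is read from the minus strand they lie toward its 5' end. The 5' to 3' ratio was -1.84 to -1.79 in WT and -1.77 to -1.74 in HSA-LR gastrocnemius. With this ratio as a covariate bins 060, 064 and 070 were still called and bin 066 was not. Bin 060 was lost under 6 of 13 alternatives, bin 064 under 3, bin 070 under 6 and bin 066 under 10. The deposited gene model of Lama2 is not the version in the annotation used here, so no coordinates are given for them.

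In the quadriceps, a cassette exon of 600 bases near the 5' end of Col6a3, bin 047 at chr1:90813215-90813814, carries 1 of the repeated domains of the chain's long amino-terminal part. It is in 2 annotated transcripts and skipped in 2, and its junctions are given because it was the cassette exon of a collagen called on treatment, with the exon in capitals.
Col6a3 into the exon: ctggaaccacggaagTTCACGTAAACAAAC
Col6a3 out of the exon: CACTATCCCAGCCAGagagcaagcgggaca
Col6a3 without the exon: ctggaaccacggaagagagcaagcgggaca
It held 3, 38 and 7 counts in WT, 3, 12 and 14 in HSA-LR and 38, 58 and 18 in Pip6a-PMO quadriceps. All treated mice lay above all HSA-LR mice, and WT mouse 2 was as high as treated mouse 1. Its share was higher on treatment by 2.35 on the log2 scale (adjusted p = 0.000232), a call that was kept under 12 of 13 alternatives and lost with the 5' to 3' ratio as a covariate (adjusted p = 1). In the gastrocnemius the relative change on treatment was 0.26 (adjusted p = 1), on 5 to 31 counts in treated mice. The remaining bin, 007 of Col6a1, is 9 bases long at chr10:76712865-76712873, and its counts were 92, 7 and 0 in WT, 12, 13 and 7 in HSA-LR and 56, 12 and 49 in Pip6a-PMO quadriceps. High counts in 1 WT mouse and 2 treated mice carried its changes of -2.33 and 2.54, the first of which was lost without WT mouse 1 and under 3 of the other 12 alternatives, and in the gastrocnemius the counts ran from 3 to 101 with all groups overlapping.

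**Figure D5:**
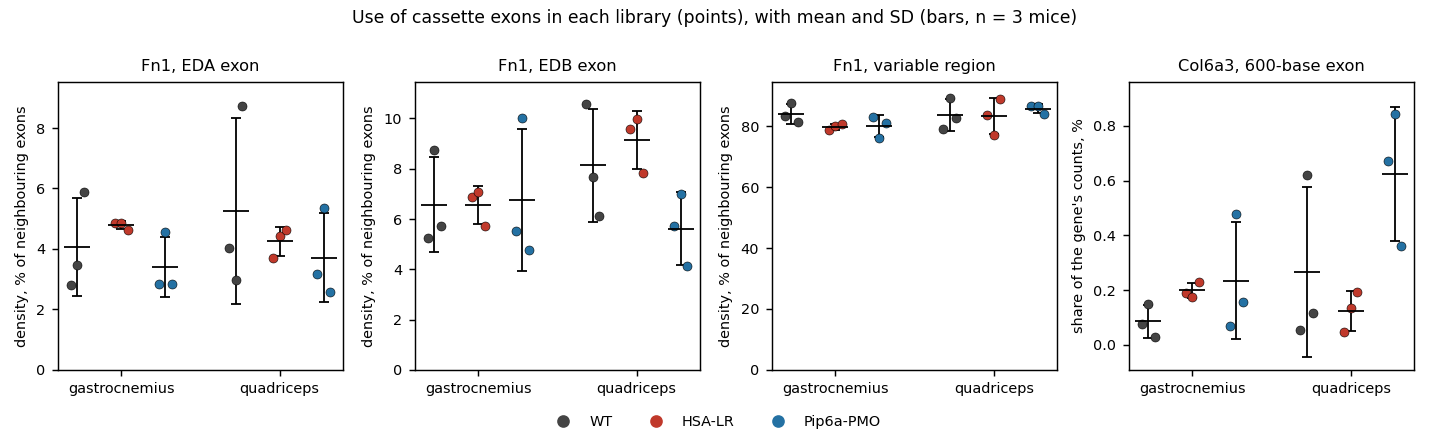
Use of EDA, EDB and the variable region of Fn1 (counts per base as % of the neighbouring exons) and of the 600-base exon of Col6a3 (% of the gene's counts) in each library (points), with the mean and SD of the 3 mice of a group (bars). EDA in the gastrocnemius and EDB in the quadriceps lie lower in treated than in HSA-LR mice without overlap, the variable region in the gastrocnemius lies lower in HSA-LR than in WT mice, and in the quadriceps the treated mice lie above the HSA-LR mice for Col6a3.

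Promoters of the matrix genes were searched for the AP-1 site TGACTCA on both strands, from 250 bases before to 50 after the gene start (RefSeq, GRCm38.p6). Of the 46 genes plus the 2 not analysed, 32 had a promoter in the table, and 2 of 32 held the site, Col6a1 and Tnxb, against 5.95% of all genes with a promoter there. This count is near the share of all genes. The 2 sites are shown with the motif in capitals, at chr10:76726117-76726145 and chr17:34670469-34670497.
Col6a1: tgctgatgctgTGACTCActcagctttga
Tnxb: ctgacctttacTGAGTCAgttctcacacg
The site of Tnxb is on the opposite strand. A match describes these letters and not the binding of a factor.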

How the data were processed

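RNA of 9 gastrocnemius and 9 quadriceps muscles was sequenced from polyA-selected stranded libraries. The submitters' processing notes name CASAVA, HISAT, featureCounts 1.5.0 and GRCm38. The authors deposited whole-number read counts per exon bin and sample, with no normalization. Counts of a gene's bins were summed here (46725 genes, 46520 with a symbol in GENCODE M21), so a read that spans bins can count more than once in a gene. The summary lines for unassigned reads, 2.82% to 4.14% of a library, were left out, and no columns of other samples were present (0). Since depth was high, precision rests mostly on the spread between 3 mice a group, and for low genes and bins on their counts.

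Genes that passed filterByExpr (minimum count 10, minimum total 15; 15625 in gastrocnemius, 15574 in quadriceps) were scaled by TMM and fitted with edgeR 4.0.16 (glmQLFit, glmQLFTest) in R 4.3.3, the 3 groups of a muscle together. Differences between muscles came from 1 fit of 18 libraries (16167 genes), without the mouse as a term. P values were adjusted by the Benjamini-Hochberg method over all genes tested, at a threshold of 0.1. Exon bins (172719 and 172858) were tested with diffSpliceDGE, and limma 3.58.1 (voom, diffSplice) and DESeq2 1.42.0 served as alternatives, beside other scalings, filters, the replicate block and leaving out each library. The code was tested on simulated data.

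Deviations from the group mean correlated between the muscles of 1 mouse (r 0.161 to 0.724 in 9 of 9, medians 0.324 for the same and -0.15 for other numbers), so the mouse number pairs the muscles, as the mice are the same. Counts of replicates differed beyond sampling noise in every pair. The genes and all lists were chosen with earlier results of these data known. Values per library are given for Fn1 and, per muscle, for the 6, 4 and 3 genes of smallest p in HSA-LR against WT, treated against HSA-LR and treated against WT mice, and the rest are given by role, where genes with values outside this rule were picked after their values were seen. Promoter sequences came from RefSeq (GRCm38.p6), in which 32 of 48 symbols matched, and junctions from GENCODE M21 transcripts.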

Additional observations from a re-analysis of the deposited data

How the results depend on the processing

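Among the named genes, 855 values under alternative settings kept their direction and their side of the threshold, 213 kept their direction and lost the call, 6 gained one and 0 turned. The count of matrix genes called in treated against HSA-LR gastrocnemius was 5 with the largest bin standing for each gene, and that in the quadriceps was 1 with the 5' to 3' ratio as a covariate, a setting chosen after the data had been seen. DESeq2 called 3 in treated against WT quadriceps. Between the muscles of WT mice the count was 4 with all genes of at least 1 count, 6 with DESeq2, 1 with the largest bin and 10 with the mouse as a replicate block. Leaving out single libraries gave 2 to 9, 2 to 13 and 0 to 1 genes in HSA-LR against WT, treated against HSA-LR and treated against WT gastrocnemius, 11 to 23, 3 to 14 and 0 to 3 in the quadriceps, 0 to 5 between WT muscles and 0 for both interactions and for the bins of Fn1. Within a muscle, the replicate number as a block paired mice of different groups by number alone (median r -0.064 in gastrocnemius and 0.053 in quadriceps). With it the counts were 6, 10 and 0 in the gastrocnemius and 21, 11 and 0 in the quadriceps. With the mouse as a block, which paired the 2 muscles of 1 mouse, the count was 0 for both interactions. Depth limited the cassette exons of Fn1 and the single bins of few counts. The shares of all genes called under these alternatives are not given here, and the cause of these shifts was not tested.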
